A study of Mus musculus with 24 samples.

Results

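NK cells of Panc02 tumors are described here from single-cell RNA-Seq of the tumors of mice that received a neoantigen vaccine, checkpoint antibodies, or both. The files carry no cell annotation, so NK cells were taken by a rule on their counts of unique molecular identifiers (UMIs, 1 per captured RNA molecule). A barcode needed at least 1000 UMIs, under 10% of them mitochondrial, at least 1 UMI of *Ncr1*, and at least 1 UMI over *Klrb1c*, *Klrd1*, and *Klre1*. *Cd3d*, *Cd3e*, *Cd3g*, *Cd8b1*, and *Cd79a* had to be at 0 and *C1qb* at 1 UMI at most. The rule kept 357 of the 120912 cells that passed both quality limits, from 144994 barcodes.

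NK cells are innate lymphocytes that kill stressed, infected, or transformed cells with perforin and granzymes and recruit other immune cells with chemokines. They carry no rearranged antigen receptor and weigh signals from germline-encoded receptors. Among these are the activating receptors NKp46 (*Ncr1*), NK1.1 (*Klrb1c*), and NKG2D (*Klrk1*), and the Ly49 family (*Klra* genes), most members of which bind MHC class I and inhibit the cell. In tumors, NK cells respond to target cells that have lost MHC class I, and their *Xcl1* and *Ccl5* attract cross-presenting dendritic cells.

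Panc02, a murine pancreatic cancer line, was implanted subcutaneously in WT male C57BL/6 mice aged 6 to 7 weeks, and tumors were harvested on day 38. The 8 treatments were isotype control, anti–PD-1, anti–CTLA-4, both antibodies, PancVAX, PancVAX with anti–PD-1, PancVAX with anti–CTLA-4, and PancVAX with both antibodies. PancVAX (neoantigen peptides, 50 ug by the labels, which the study's methods give for each peptide) was injected on days 12 and 19, anti–PD-1 (100 ug) repeatedly each week from day 12, and anti–CTLA-4 (100 ug) on days 15 and 22. By the study's methods the peptides were given with AddaVax and a STING agonist, and the other mice received PBS, so that peptides and adjuvants cannot be told apart. Tumors were pooled by treatment, and each treatment has 1 library of the whole dissociated tumor and 1 of a Percoll preparation enriched for immune cells. Both libraries of a treatment are called its pool here. The sources used here do not say whether 1 set of mice gave both. A value per pool is thus 1 value for a group of mice, and *P* values of comparisons of NK cells over pools measure the spread between 8 pools. Those of comparisons over the 16 libraries measure the spread between libraries, of which the 2 of a treatment may share mice. The whole-tumor and Percoll libraries were also sequenced in separate batches, so that preparation and batch cannot be told apart.

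The 16 libraries held 77132398 to 176233225 UMIs each. NK cells numbered 11 to 33 per library and 28 to 58 per pool, with 162 from whole-tumor and 195 from Percoll libraries, and 155 from the 4 pools with PancVAX and 202 from the 4 without. An NK cell had a median of 3502 UMIs (range, 1025–51129) and 1411 genes. Their UMIs summed to 46758 to 205314 per library. Of all barcode sequences, 25109 occurred in more than 1 library, as did those of 55 NK cells, but no sequence was shared by 2 NK cells.

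At the edges of the rule, 145 NK cells had 1 *Ncr1* UMI, 85 had 2, and 127 had at least 3, whereas 1603 cells passed everything but *Ncr1*. A further 96 cells passed everything but the *Cd3* limit, 25 of them with a single *Cd3* UMI, and 18 passed everything but the *C1qb* limit.

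A small set of very large cells stood apart and touched several results. There were 28 NK cells with more than 10000 UMIs (the study's own upper limit), and 21 of them also had more than 3000 genes, its other upper limit. In these 28 cells, 10 NK cell genes not used by the rule made up a median of 32.4 UMIs per 10000 (range, 2.93–110), against 125 (range, 14.1–741) in the other 329. Tumor or epithelial markers came to 16.0 UMIs per 10000 in the large cells and to 0.884 in the others, and fibroblast or endothelial markers to 20.5 and 1.31. The large cells supplied between 17.3% and 56.0% of a pool's NK cell UMIs. Gene counts and list medians from summed UMIs are therefore also given under the study's limits (200 to 3000 genes, 1000 to 10000 UMIs, no hemoglobin) where named, and the part of the large cells in a result was not tested further.

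**Figure D1:**
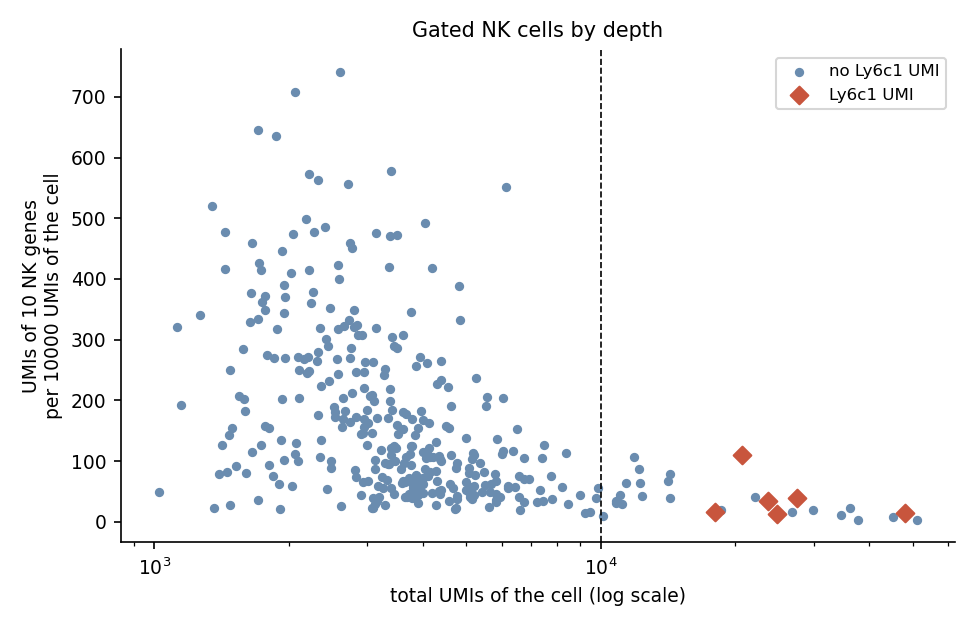
NK cell gene content of single NK cells against their size. Each point is 1 of 357 NK cells, with its total UMIs on a log x axis and its UMIs of 10 NK cell genes outside the rule, per 10000 UMIs, on a linear y axis. The dashed line marks 10000 UMIs, with a median of 32.4 for the 28 cells to its right and 125 for the other 329, and the 6 red diamonds are the cells with a *Ly6c1* UMI.

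The first question was whether the cells taken by the rule carried the NK cell program outside the genes that chose them. Since they were chosen on these data, the following values describe them and were not tested. To compare cell types of unequal depth, each cell was thinned to 1000 UMIs, and shares are of thinned cells with at least 1 UMI. The comparators were 12707 CD8+ T cells (median, 4417 UMIs) and 2090 B cells (median, 2165 UMIs). B cells had *Cd79a* and *Ms4a1* detected and the *Cd3* genes and *Ncr1* at 0, with no limit on *C1qb*. Macrophage or monocyte markers came to 17.1 UMIs per 10000 in B cells, against 3.06 in NK cells and 1.81 in CD8+ T cells. B cell shares are therefore a comparison and not a measure of free RNA.

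Of the genes the rule used, *Klrb1c* had a UMI in 305 NK cells, *Klrd1* (CD94) in 277, and *Klre1* in 245. The ITAM adaptors through which NK cell receptors signal were detected in most NK cells. *Fcer1g* was found in 90.2% of NK cells, 9.40% of CD8+ T cells, and 9.28% of B cells. *Tyrobp* (DAP12) was found in 83.2%, 4.25%, and 12.2%, respectively. Myeloid cells and other innate lymphocytes were not compared, so these shares do not separate NK cells from them. The adaptor of NKG2D, *Hcst* (DAP10), was shared with CD8+ T cells at 45.4% and 48.3%. *Txk*, a Tec family kinase, was detected in 29.1% of NK cells and 5.60% of CD8+ T cells, and *Klrk1* in 38.1% and 19.2%. *Klrb1b*, an inhibitory receptor encoded beside *Klrb1c*, was detected in 24.1% and 0.228%. *Fcgr3* (CD16), the receptor for antibody-coated targets, reached 6.16% of NK cells. Without thinning, *Txk* was detected in 49.0% to 84.5% of the NK cells of each pool.

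T cell receptor contigs, *Cd5*, and *Cd6* were at 0, whereas other T cell markers outside the rule were detected. In the Percoll libraries, where T cell receptor transcripts were also sequenced, 0 of 195 NK cells had a receptor contig, which allows a share of up to 1.54%. A contig was found in 84.0% of 6923 CD8+ T cells and 68.3% of 11678 T cells. The limit is for cells with a contig, and T cells without one are not covered by it. *Cd5* and *Cd6*, which T cells carry, were at 0 in all 357 cells. A T cell list of 12 genes holds both, beside genes that the rule set to 0. It summed to 1.82 UMIs per 10000 in NK cells and 45.9 in CD8+ T cells. At least 1 of its genes had a UMI in 51.8% of unthinned NK cells. *Lef1*, on this list, had one in 12.0%, against 13.6% of CD8+ T cells. Transcripts of receptor constant regions were present, with *Trbc1* in 31.1% of unthinned NK cells and 30.7% of CD8+ T cells, *Trdc* in 12.3% and 0.228%, *Trbc2* in 20.2% and 56.5%, and *Trac* in 6.72% and 63.6%. The γδ receptor segment *Trdv4* had a UMI in 98 NK cells (27.5%, against 0.110% of CD8+ T cells) and *Tcrg-C4* in 12.3% (3.84%). The 8 genes of a γδ T cell list summed to 1.60 UMIs per 10000 in NK cells and 0.749 in CD8+ T cells, with *Il17a*, *Cd163l1*, and *Tcrg-C2* at 0. The 10 genes of a type 1 innate lymphoid cell (ILC1) list summed to 11.1 UMIs per 10000 in NK cells and 13.4 in CD8+ T cells. *Eomes*, the T-box factor of conventional NK cells, was detected in 128 unthinned cells, *Itga1* (CD49a), carried by ILC1 and tissue-resident NK cells, in 50, and both in 10. At least 1 of *Eomes*, *Txk*, *Klra4*, *Klra7*, *Klra8*, and *Klra9* was detected in 318 of 357 cells (89.1%), against 33.5% of CD8+ T cells and 6.03% of B cells. After thinning to 1000 UMIs these shares were 65.3%, 8.24%, and 1.29%. The 6 genes were picked with earlier results of these data known. Their *Klra* genes are the most often detected of the 7 measured, so these shares are a description. *Itga1* was detected without *Eomes* in 40 cells, and NK cells were not separated from ILC1, or from γδ T cells without a detected *Cd3* UMI, cell by cell.

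**Figure D2:**
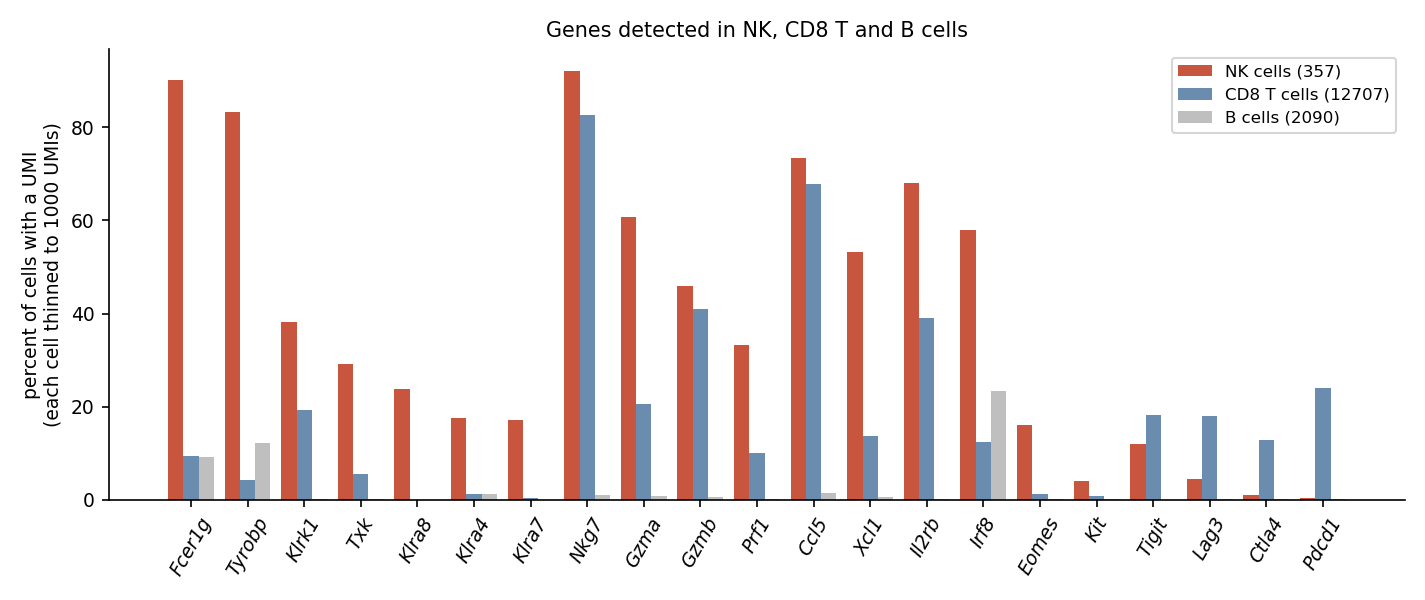
Share of cells with a UMI after thinning each cell to 1000 UMIs, for NK cells, CD8 T cells, and B cells. The y axis gives the percent of cells and the x axis the genes. *Fcer1g* and *Tyrobp* reach 90.2% and 83.2% of NK cells and at most 12.2% of either other cell type, whereas *Nkg7* and *Ccl5* are shared with CD8 T cells.

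The Ly49 receptors varied from cell to cell. The 7 *Klra* genes measured lie side by side on chromosome 6, from 129898988 to 130386874 in GRCm38.p6, a span of 488 kb in the NK gene complex that also holds *Klrb1c*, *Klre1*, *Klrd1*, and *Klrk1*. The activating receptor Ly49H (*Klra8*) was detected in 23.8% of thinned NK cells and 0.00787% of CD8+ T cells. Ly49D (*Klra4*), also activating, was detected in 17.6% and 1.13%. The inhibitory Ly49G2 (*Klra7*) was found in 17.1% and 0.441%, Ly49I (*Klra9*) in 13.7% and 0.0944%, and *Klra3* (Ly49C), *Klra1* (Ly49A), and *Klra5* (Ly49E) in 7.00%, 5.04%, and 1.68% of NK cells. Genes of this family are close in sequence, so reads could be split between members.

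Without thinning, 106 NK cells had no *Klra* gene detected, 76 had 1, 78 had 2, 60 had 3, 33 had 4, and 4 had 5. At least 1 was detected in 70.3% of NK cells (60.7% to 80.4% per pool), 13.0% of CD8+ T cells, and 6.51% of B cells. At least 2 were detected in 49.0%, 1.11%, and 0%. Thinning lowered the NK cell share with at least 1 to 51.5%, so cells without a detected Ly49 gene may hold one below this depth.

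**Figure D3:**
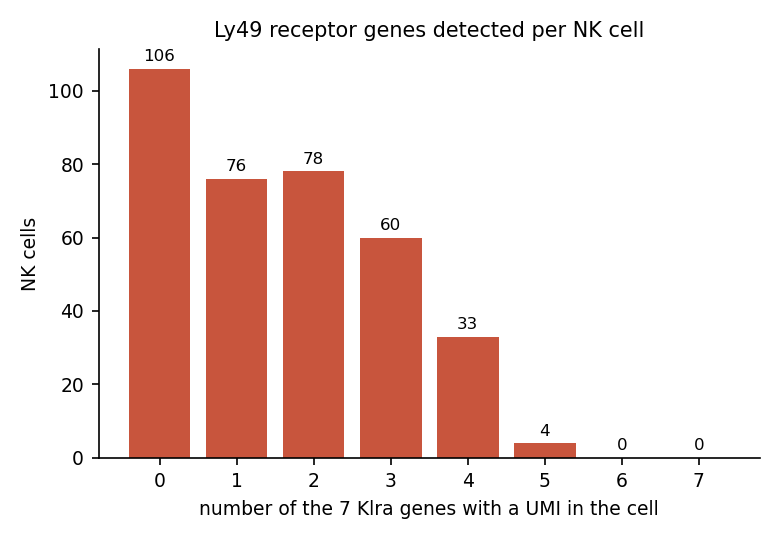
Number of *Klra* (Ly49) genes detected per NK cell. The x axis gives how many of the 7 genes had a UMI in the unthinned cell and the bars give the number of NK cells, of 357 in all. The cells spread from 0 to 5 genes, with 106 at 0 and 175 at 2 or more.

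The killing machinery and the chemokines were shared in part with CD8+ T cells. *Nkg7*, a granule protein, was detected in 92.2% of thinned NK cells and 82.7% of CD8+ T cells, *Gzmb* in 45.9% and 40.9%, and *Ccl5* in 73.4% and 67.9%. *Gzma* was detected in 60.8% and 20.5%, *Prf1* (perforin) in 33.3% and 9.96%, and *Xcl1*, which draws cross-presenting dendritic cells, in 53.2% and 13.7%. *Serpinb9*, which protects cytotoxic cells from their own granzyme B, reached 35.6% and 14.6%. *Gzmk* ran the other way, at 0% of thinned NK cells and 12.1% of CD8+ T cells. Without thinning, *Gzma* and *Gzmb* were both detected in 186 NK cells, *Gzma* alone in 52, *Gzmb* alone in 58, and neither in 61. Over the 8 pools, *Gzmb* had a UMI in 57.8% to 82.6% of NK cells and *Gzma* in 56.9% to 75%. *Ifng* was detected in 11.5% of NK cells and 12.3% of CD8+ T cells.

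Genes of maturation and cytokine response completed the profile. *Il2rb*, the shared IL-2 and IL-15 receptor chain, was detected in 68.1% of thinned NK cells and 39.0% of CD8+ T cells. *Irf8*, a transcription factor of NK cell maturation, reached 58.0%, 12.3%, and, in B cells, 23.3%. Mouse NK cells are staged by CD27 and CD11b (*Itgam*), and without thinning 85 cells had *Cd27*, 65 had *Itgam*, 11 had both, and 218 had neither, so most cells could not be staged at this depth. *Kit* reached 3.92% of thinned NK cells and 0.866% of CD8+ T cells, and *Klrg1*, a receptor of terminal cells, 5.04% and 0.866%.

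The receptors that the antibodies bind were scarce in NK cells. *Pdcd1* (PD-1) was detected in 1 of 357 NK cells, from the pool of both antibodies without PancVAX, with 6 UMIs. After thinning it was found in 0.280% of NK cells and 24.0% of CD8+ T cells. *Ctla4* had a UMI in 32 NK cells, and after thinning in 1.12% against 12.7% of CD8+ T cells. *Lag3* was detected in 4.48% and 18%, and *Havcr2* (TIM-3) in 3 unthinned NK cells. *Tigit* was the most often detected of these 5, in 139 unthinned NK cells (27.7% to 52.2% per pool), and in 12.0% and 18.3% of thinned cells. In all, 189 NK cells had none of the 5 receptors detected, and 33 had *Pdcd1* or *Ctla4*.

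The next question was whether the treatments went with the number of NK cells. The share of a pool is the mean of the shares in its 2 libraries, and differences were tested by exact two-sided permutation over all 70 splits of the 8 pools, for which the smallest possible *P* is 0.0286. With PancVAX, NK cells made up 0.229% of cells in the pool of PancVAX alone, 0.236% with anti–CTLA-4, 0.268% with anti–PD-1, and 0.299% with both antibodies. Without PancVAX, they made up 0.300% with anti–CTLA-4, 0.349% with both antibodies, 0.368% with isotype control, and 0.380% with anti–PD-1. The 2 groups did not overlap, although the highest pool with PancVAX and the lowest without lay side by side. The means were 0.258% ± 0.032 and 0.349% ± 0.035 (SD, n = 4 pools each), a difference of −0.0912 percentage points with an exact permutation *P* of 0.0286. Adjusted over the 6 share tests by the Benjamini-Hochberg method, the exact permutation *P* was 0.0857 and did not pass 0.05. Under the study's limits the means were 0.462% and 0.766%, and the difference was −0.304 points (exact permutation *P* = 0.0286). These limits also remove large cells of other types from the cells counted. All cells had a median of 5164.5 to 12371 UMIs per library with PancVAX and 8853 to 14503 without. The part of cell size in this difference was not tested. Detection of *Ncr1* depends on depth. With each cell thinned to 1000 UMIs before the rule was applied, the means were 0.121% with PancVAX and 0.164% without, a difference of −0.0431 points (exact permutation *P* = 0.114). Among cells of at least 2000 UMIs they were 0.263% and 0.342% (−0.0796 points, exact permutation *P* = 0.0571). In whole-tumor libraries alone they were 0.240% and 0.327% (−0.0868 points, exact permutation *P* = 0.171), and in Percoll libraries alone 0.276% and 0.371% (−0.0956 points, exact permutation *P* = 0.0286).

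T cells took a larger share of the tumors with PancVAX, at 22.0% ± 4.89 against 13.6% ± 1.32 of all cells (unadjusted exact permutation *P* = 0.0286, n = 4 pools each). NK cells were 1.19% ± 0.18 of NK and T cells with PancVAX and 2.55% ± 0.34 without (SD, n = 4 pools each). This difference of −1.37 points had an exact permutation *P* of 0.0286 and an adjusted *P* of 0.0857. With T cells left out of the cells counted, NK cells were 0.333% of the remaining cells with PancVAX and 0.404% without, a difference of −0.0712 points (exact permutation *P* = 0.114). A smaller number of NK cells and a larger number of other cells cannot be told apart in such shares.

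**Figure D4:**
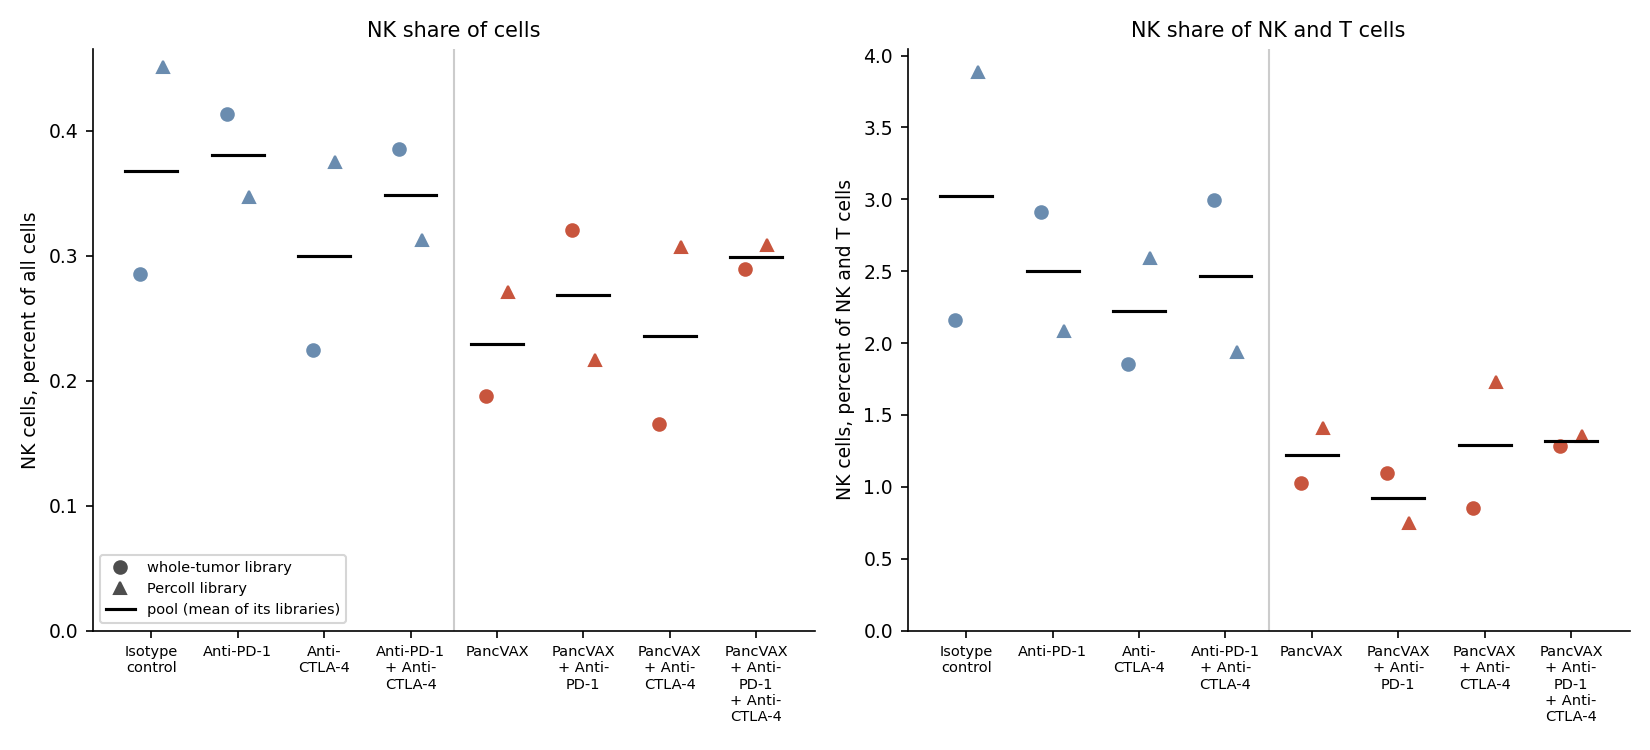
NK cells as a percent of all cells (left) and of NK and T cells (right) by treatment. Circles are whole-tumor libraries, triangles are Percoll libraries, and lines are pools (mean of the 2 libraries), without (blue) or with (red) PancVAX. In the right panel the 4 pools with PancVAX lie between 0.922% and 1.32% and the 4 pools without between 2.22% and 3.02%.

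For the antibodies, the 4 pools with anti–PD-1 had a mean NK share of 0.324% ± 0.050 and the 4 without 0.283% ± 0.065 (exact permutation *P* = 0.343, adjusted 0.514). In whole-tumor libraries alone the difference by anti–PD-1 was 0.136 points (exact permutation *P* = 0.0286), and in Percoll libraries alone it was −0.0549 points (exact permutation *P* = 0.371). The Percoll minus whole-tumor difference lay between −0.104 and 0.0190 points in the pools with anti–PD-1 and between 0.0833 and 0.166 points in those without. This split was noticed in the data before an exact permutation test was run on it (adjusted *P* = 0.0857 over the 3 agents), so that test supports nothing here and the ranges are a description. With anti–CTLA-4 the mean share was 0.296% ± 0.046 and without it 0.311% ± 0.074 (exact permutation *P* = 0.800).

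NK cells made up 0.284% ± 0.089 of cells in whole tumor and 0.323% ± 0.070 after Percoll (SD, n = 8). The share was higher after Percoll in 5 of 8 treatments, by a mean of 0.0396 points (exact sign-flip permutation *P* = 0.336). Under the study's limits it was higher in 7 of 8, by 0.158 points (exact sign-flip permutation *P* = 0.164), and after thinning in 4 of 8, by 0.00551 points (exact sign-flip permutation *P* = 0.828). Cycling cells, taken as those with a *Mki67* or *Top2a* UMI after thinning, were 7.16% ± 5.19 of NK cells with PancVAX and 5.98% ± 1.80 without (exact permutation *P* = 0.714).

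Gene expression was compared on the UMIs of NK cells summed by pool, by the quasi-likelihood test of edgeR, with a term for each of the 2 antibodies. A gene was called at a Benjamini-Hochberg adjusted *P* under 0.05 and an absolute log2 fold change over 0.5. In pooled cells, fewer cells that express a gene and less RNA per cell cannot be told apart. With PancVAX, 1 of 3836 genes was called (0.0261%), and 214 had an unadjusted *P* under 0.05. DESeq2 called 2 genes.

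The gene called was *Ly6c1*, a surface protein of endothelial cells and lymphocytes (chromosome 15, 75044018–75048920 in GRCm38.p6). Its level was 119, 89.9, 123, and 42.0 CPM (the gene's UMIs scaled to a common total over the summed NK cells) in the pools of anti–CTLA-4, anti–PD-1, both antibodies, and isotype control. With PancVAX it was 4.83 with anti–CTLA-4 and 0 in the other 3 pools. The fitted log2 fold change was −5.84 (SE 0.64, adjusted *P* = 0.00635 by edgeR). All 98 *Ly6c1* UMIs came from 6 cells, each with more than 10000 UMIs, and 0 from the other 329 cells. The result therefore rests on 6 of the large cells, and no gene was called under the study's limits, where 203 of 2757 genes had an unadjusted *P* under 0.05.

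The NK cell genes varied between pools without a call. *Gzmb* was at 1133 ± 130 CPM with PancVAX and 1052 ± 139 without (log2 fold change 0.08, SE 0.15). *Gzma* was at 4437 ± 998 and 5027 ± 1033, and *Prf1* at 374 ± 75.6 and 379 ± 121 CPM. *Ccl5* ranged from 4104 to 6331 CPM with PancVAX and from 3714 to 8495 without (log2 fold change −0.37, SE 0.20). *Klra8* ranged from 93.4 to 204 with PancVAX and from 193 to 234 without (log2 fold change −0.51, SE 0.24), and *Klra7* from 87.0 to 285 and from 153 to 257. *Txk* was at 241 ± 33.4 and 263 ± 74.5 CPM. *Ifnar1*, a chain of the type I interferon receptor, had a log2 fold change of 0.38 (SE 0.33) and *Il21r*, the IL-21 receptor, of 0.68 (SE 0.43). The adjusted *P* of each gene in this paragraph was at least 0.887 by edgeR.

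The gene lists gave no call in either direction, and their medians are set here beside the median log2 fold change of all 3836 genes, 0.01. Of 16 interferon-stimulated genes tested, 14 were lower with PancVAX (median −0.63). Of 13 cell cycle genes, 12 were higher (median 0.68), and of 20 immediate-early and dissociation stress genes, 19 were higher (median 0.40). Under the study's limits these medians were −0.24, 0.29, and 0.26. The summed level of the interferon list lay between 9.97 and 20.2 UMIs per 10000 in the pools with PancVAX and between 18.3 and 32.2 in those without, and that of the cell cycle list between 17.1 and 33.4 and between 9.17 and 21.7. Markers of other cells also varied between pools. Fibroblast or endothelial markers lay between 0.865 and 7.32 with PancVAX and between 1.89 and 27.2 without, and tumor or epithelial markers between 0.407 and 25.4 and between 1.62 and 4.50. Their part in these medians was not tested. Of 17 activating receptors and adaptors, 14 were lower (median −0.26), as were 9 of 10 NK cell genes (median −0.22), 10 of 15 cytotoxic genes (median −0.10), and 11 of 15 MHC class I genes (median −0.16). These 4 medians under the study's limits were −0.24, −0.11, −0.078, and −0.11. The PancVAX effect on the NK cell genes was more positive in whole-tumor than in Percoll libraries in all 10 (median difference 0.69, against 0.02 over all 2156 genes tested), with 0 called, and the median was 0.11 under the study's limits. In the same comparison both tumor or epithelial markers tested and 2 of 3 fibroblast or endothelial markers were more negative in whole tumor (medians −1.64 and −2.51), as were 6 of 8 cell cycle genes (median −1.90, and −0.997 under the study's limits). The part of these markers was not tested. Transcription factors stood at a median of 0.03, cytokine receptors at 0.12, and homing and residency genes at 0.03 (0.049, 0.18, and 0.068 under the study's limits).

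No gene of 3836 was called for anti–PD-1 by edgeR (0%), with 199 at an unadjusted *P* under 0.05 and 1 called by DESeq2. No gene was called for anti–CTLA-4 by edgeR (0%), with 169 at an unadjusted *P* under 0.05 and 1 called by DESeq2. With anti–PD-1, all 10 NK cell genes (median 0.33) and all 8 cytokine and chemokine genes tested (median 0.36) had a positive log2 fold change, against a median of 0.01 over all genes (0.22 and 0.13 for both lists under the study's limits). Of the 13 cell cycle genes 12 were lower (median −0.39), and of 15 S100, galectin, and Ly6 genes 14 were lower (median −0.27), with medians of −0.15 and −0.12 under the study's limits. Markers of other cells moved with these lists. Both tumor or epithelial markers tested were lower, each at an unadjusted *P* under 0.05 (median −2.12, and −0.21 under the study's limits), as were all 3 neutrophil markers (median −1.92, and −2.41 under the study's limits). Their part in these medians was not tested. *Ccl5* was at 0.47 (SE 0.20) and *Txk* at 0.48 (SE 0.21), each with an adjusted *P* of 0.87 by edgeR. With anti–CTLA-4, 9 of 10 NK cell genes had a negative log2 fold change (median −0.18, and 0.042 under the study's limits), as had 14 of 17 activating receptors and adaptors (median −0.22, and 0.058 under the study's limits). Of the 13 cell cycle genes 12 were higher (median 0.66, and 0.33 under the study's limits), as were 13 of 15 S100, galectin, and Ly6 genes (median 0.36, and 0.29 under the study's limits). Of the 3 neutrophil markers 2 were higher and 1 lower (median 1.89, and 2.17 under the study's limits), and their part in these medians was not tested. Under the study's limits, 2 of 2757 genes were called for anti–PD-1 (0.0725%), *Ifitm3* (log2 fold change −1.37) and *S100a8* (−4.91), and 1 of 2757 for anti–CTLA-4 (0.0363%), *S100a6* (0.94). *S100a8* is a neutrophil gene and *Ifitm3* an antiviral protein, and the summed level of the neutrophil markers in NK cells ranged from 0 to 10.8 UMIs per 10000 over the 8 pools. The part of neutrophil RNA in these calls was not tested.

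The 2 pairs of treatments closest to the study's own questions were compared over the 16 libraries with preparation as a covariate. PancVAX against isotype control called 0 of 2504 genes by edgeR (0%), with 122 at an unadjusted *P* under 0.05. Both antibodies added to PancVAX also called 0 of 2504 by edgeR (0%), with 97 at an unadjusted *P* under 0.05, and DESeq2 called 0 in both pairs. Both pairs under the study's limits called 0 of 1579 genes by edgeR (0%), with 89 and 91 at an unadjusted *P* under 0.05. Against isotype control, *Gzmb* had a log2 fold change of 0.10 (SE 0.64) and *Ccl5* of −0.70 (SE 0.45). With both antibodies added, *Ifnar1* had a log2 fold change of 1.49 (SE 0.88), *Il21r* of 0.78 (SE 0.84), *Gzmb* of 0.48 (SE 0.63), and *Ccl5* of 0.44 (SE 0.45). Each of these treatments had 2 libraries, which may share mice, and the SEs of these log2 fold changes were between 0.45 and 0.88.

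Preparation was compared over the 16 libraries with treatment as a covariate. Percoll against whole tumor called 3 of 2504 genes (0.12%), 2 of them higher (0.0799%) and 1 lower (0.0399%). *Gm42418*, a locus that collects ribosomal RNA reads, was at 11726 ± 1946 CPM after Percoll and 21781 ± 3714 CPM in whole tumor, and lower after Percoll in 8 of 8 treatments (log2 fold change −0.92, SE 0.10, adjusted *P* = 0.000857 by edgeR). *Fam107b* and *Ube2s*, a ubiquitin-conjugating enzyme of mitosis, were higher after Percoll in 8 of 8 treatments, by a log2 of 1.19 and 1.23 (adjusted *P* = 0.0388 each by edgeR).

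Under the study's limits Percoll against whole tumor called 50 of 1579 genes (3.17%), 36 higher (2.28%) and 14 lower (0.887%). Of the 20 immediate-early and dissociation stress genes, 7 were called higher, among them *Fosb* (log2 fold change 1.52), *Nfkbia* (1.26), *Egr1* (1.24), and *Zfp36* (1.12). *Gadd45b* (2.33), *Cdkn1a* (2.26), and the early activation marker *Cd69* (1.52) were also higher, whereas 9 mitochondrially encoded genes were lower. In the same comparison over all 357 cells, all 20 immediate-early genes had a positive log2 fold change (median 0.63) with 0 called. Whether PancVAX acted alike in both preparations was tested in 2156 genes, and 1 was called (0.0464%). *Tubb5*, a tubulin of dividing cells, had a whole-tumor minus Percoll difference in its log2 fold change of −2.16 (SE 0.33, adjusted *P* = 0.0125 by edgeR), and 470 of its 795 UMIs came from the 28 large cells. With the study's limits its difference was −1.43 and not called, and 1 of 1391 genes was called (0.0719%), *Ifitm2*, an antiviral protein (4.80, SE 0.91).

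Last, the PancVAX effect in NK cells was compared with that in CD8+ T cells of the same pools, in a fit of 12547 genes with the pool as a block. The filter on low counts ran over both cell types together, whereas 3836 genes passed it in NK cells alone. *Ifit3*, *Rsad2*, *Cxcr3*, *S1pr1*, *Ccnb2*, *Cenpf*, *Ccl1*, and *Col1a1* were among those that entered only with CD8+ T cells. Counts of list members in this fit hold such genes and are a description. In CD8+ T cells alone, 416 of 12959 genes were called with PancVAX (3.21%), 324 higher (2.5%) and 92 lower (0.71%). With the study's limits these were 1110 of 11158 (9.95%), 676 higher (6.06%) and 434 lower (3.89%). The difference between both cell types was called in 100 genes (0.797%), 32 more positive in NK cells (0.255%) and 68 more negative (0.542%), and 666 had an unadjusted *P* under 0.05. Without the pool block 6 of these 100 were called, DESeq2 called 13 genes, 12 of them among the 100, and between 23 and 171 were called with 1 pool left out. The SE of a difference could be smaller than that in NK cells alone, as for *Cxcl10* (0.32 and 0.57). Small *P* values of the fit with the pool block may therefore understate the spread between pools. The subsets of CD8+ T cells were not separated here, so a change of subsets and a change within cells cannot be told apart in them. T cells had a median of 3394 to 4337 UMIs per library with PancVAX and 5033 to 6300 without. NK cells had a median of 2974.5 to 3784 UMIs per pool with PancVAX and 3349 to 3840.5 without. The part of depth in the differences was not tested.

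*Ccl5* gave the smallest *P*. In NK cells it was at 5497 ± 1052 CPM with PancVAX and 7091 ± 2284 without. In CD8+ T cells it was at 7912 ± 518 and 2128 ± 355 (log2 fold change 1.85, SE 0.10). The difference of −2.23 (SE 0.21) had an adjusted *P* of 2.8e-22 by edgeR, and of 0.0011 without the pool block. The NK cell pools with and without PancVAX overlapped, and the CD8+ T cell pools did not.

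Of 22 homing and residency genes, 5 were called more negative in NK cells and 0 more positive, against 68 and 32 of all 12547 genes. In CD8+ T cells 11 of the 22 rose with PancVAX, against 324 of all 12959 genes. *Cxcr3* and *S1pr1*, among the 5, passed the filter only with CD8+ T cells. *Ccr2*, the receptor for monocyte-attracting CCL2, was at 77.3 CPM in NK cells of the anti–CTLA-4 pool, 193 with anti–PD-1, 200.2 with both antibodies, and 194 with isotype control. With PancVAX it was at 138 alone, 101 with anti–CTLA-4, 153 with anti–PD-1, and 116 with both. In CD8+ T cells it rose from between 5.81 and 7.79 to between 44.5 and 68.6 CPM. The difference was −3.31 (SE 0.31, adjusted *P* = 5.2e-22 by edgeR, and 4.1e-05 without the pool block).

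*Itgax* (CD11c) was at 96.0 ± 18.1 CPM in NK cells with PancVAX and 116 ± 17.8 without, and in CD8+ T cells at 21.7 ± 2.30 and 3.16 ± 0.54 (difference −3.06, SE 0.37). *Itgb7*, the β7 integrin chain of mucosal homing, was at 196 ± 51.9 and 190 ± 35.2 in NK cells and at 168 ± 13.1 and 43.3 ± 8.66 in CD8+ T cells (difference −1.95, SE 0.28). *Itgam* was at 33.7 ± 17.9 and 63.1 ± 15.0 in NK cells and at 4.95 ± 1.54 and 1.42 ± 0.51 in CD8+ T cells (difference −2.68, SE 0.63, adjusted *P* = 0.00516 by edgeR). *S1pr1*, the exit receptor, and *Cxcr3* rested on 31 and 50 NK cell UMIs in all and had differences of −2.44 and −2.43. *Itgam* and *S1pr1* were called with 5 and *Cxcr3* with 6 of the 8 pools left out in turn.

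**Figure D5:**
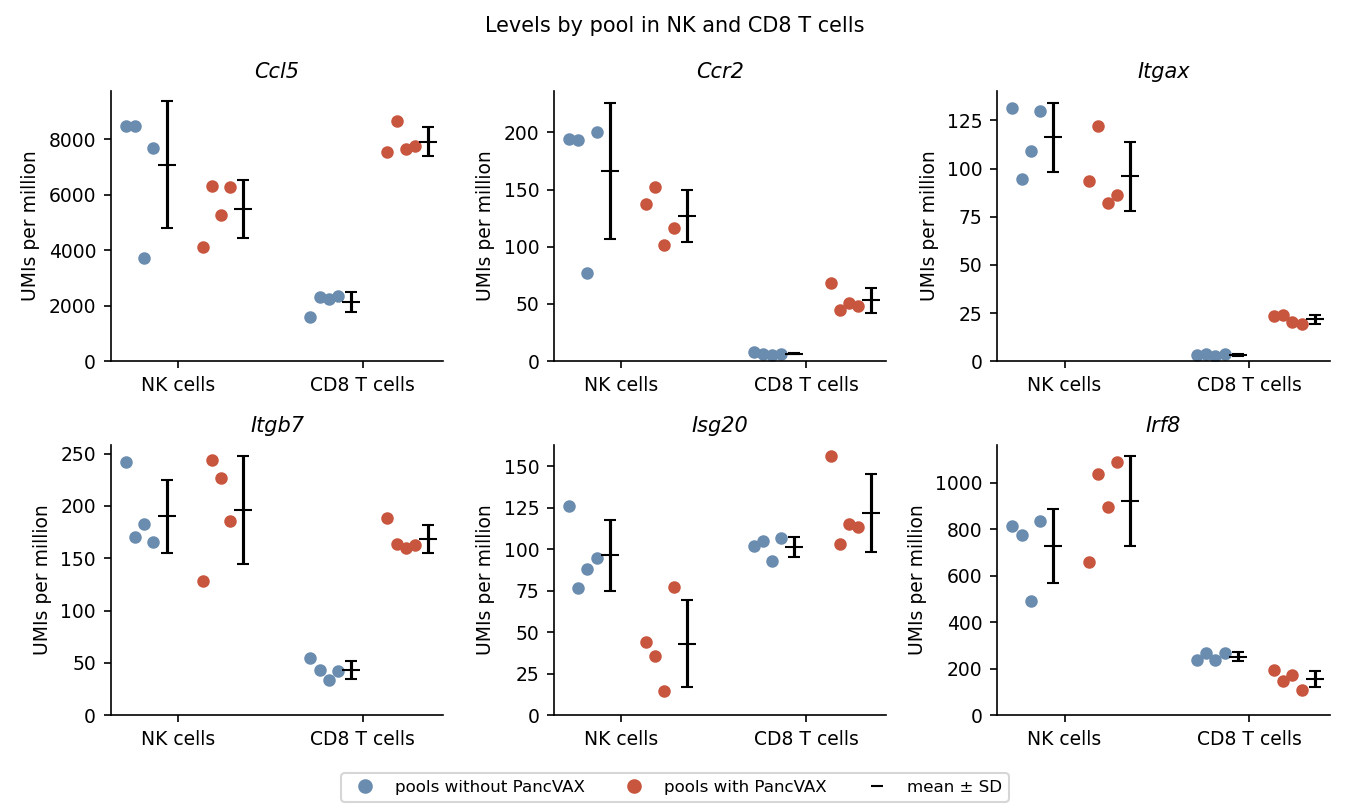
Levels of 6 genes in NK cells and CD8 T cells by pool. The y axes give UMIs scaled to CPM, each point is 1 pool, and black bars are the mean ± SD of 4 pools without (blue) or with (red) PancVAX. *Ccl5*, *Ccr2*, *Itgax*, and *Itgb7* are higher with PancVAX in CD8 T cells, whereas the NK cell pools overlap in these genes.

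Of 28 interferon-stimulated genes tested, 7 were called more negative in NK cells, against 68 of all 12547 genes. All 28 had a negative difference (median −1.20, against −0.01 over all genes). The 28 include genes that passed the filter only with CD8+ T cells, *Ifit3* and *Rsad2* among them, so these counts and the median are a description. *Isg20* was at 43.0 ± 26.2 CPM in NK cells with PancVAX and 96.3 ± 21.3 without, and in CD8+ T cells at 122 ± 23.4 and 102 ± 6.00, where it was not called (difference −1.44, SE 0.34). *Isg15* was at 87.8 ± 49.0 and 163 ± 117 in NK cells and at 210 ± 34.6 and 122 ± 6.98 in CD8+ T cells (difference −1.55, SE 0.30). *Ifit3*, *Rsad2*, *Gbp2*, *Ly6a*, and *Ifi27l2a* were the other 5, with differences of −4.53, −5.06, −1.37, −2.46, and −2.49. *Ifit3* and *Rsad2* rested on 14 NK cell UMIs each. With the 8 pools left out in turn, *Isg15* was called 6 times, *Isg20*, *Ifit3*, and *Gbp2* 5 times, and *Rsad2* 4 times. The *Gbp2* difference lay between −1.92 and −0.70 in these fits and that of *Rsad2* between −10.5 and −4.30, and the anti–CTLA-4 pool held 699 CPM of *Gbp2*. DESeq2 called *Ly6a* and *Ifi27l2a* but not the other 5. In CD8+ T cells alone, 13 of the 28 rose with PancVAX and 0 fell, against 324 and 92 of all 12959 genes. Under the study's limits for both cell types, 9 of the 28 were called more negative (median −1.07), beside 123 of 10984 genes in all (1.12%; 83 more negative, 0.756%, and 40 more positive, 0.364%), but *Ifi27l2a* and *Gbp2* were not called (differences −0.57 and −1.20). *Ly6a* was called there at −1.23, but not with DESeq2 under the same limits (−1.27, adjusted *P* = 0.67) nor with the limits for NK cells alone (−0.75, adjusted *P* = 0.99 by edgeR).

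*Cxcl10*, an interferon-induced chemokine that attracts T cells, had a difference of −2.88 (SE 0.32). In NK cells it was at 1008 CPM in the anti–CTLA-4 pool and at 94.4, 121, and 144 in the other pools without PancVAX, against 25.4 to 94.8 with it. Dendritic cell markers in NK cells summed to 6.82 to 13.9 UMIs per 10000 in the pools without PancVAX and to 4.33 to 29.2 with it, and their part was not tested. CD8+ T cells held 132 to 263 with PancVAX and 97.2 to 156 without.

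A few genes were more positive in NK cells. *Irf8* was at 920 ± 193 CPM in NK cells with PancVAX and 728 ± 159 without, and in CD8+ T cells at 156 ± 35.5 and 252 ± 17.9 (difference 1.06, SE 0.24, adjusted *P* = 0.00326 by edgeR). *Tox*, a factor of NK cell development and of T cell exhaustion, fell in CD8+ T cells from 139 ± 12.2 to 78.1 ± 13.8 and was at 24.5 ± 11.6 and 42.7 ± 30.4 CPM in NK cells without and with PancVAX (difference 1.54, SE 0.43). *Gzmc* had a difference of 1.13 (SE 0.25), with 1193 ± 583 and 1234 ± 586 in NK cells with and without PancVAX. In CD8+ T cells it was at 230 ± 163 and 391 ± 149 and was not called (adjusted *P* = 0.47 by edgeR). None of these 3 calls was kept with every pool left out in turn. *Irf8* was called with 3 of the 8 pools left out in turn, *Gzmc* with 4, and *Tox* with 1, and the difference lay between 0.90 and 1.37, between 0.10 and 1.91, and between 0.84 and 2.09. All 3 were called under the study's limits for both cell types, with differences of 1.65, 1.19, and 1.83 (adjusted *P* = 1.6e-22, 2.3e-08, and 0.0021 by edgeR). DESeq2 under these limits called *Irf8* (1.67) but not *Gzmc* or *Tox*. *Gzmb* was not called (difference −0.39, SE 0.23).

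Of the 18 cell cycle genes, 5 were called more positive in NK cells, against 32 of all 12547 genes. Among them were *Birc5* (2.23), *Ube2c* (2.19), and *Ccnb2* (3.47). Under the study's limits for both cell types, 0 of the cell cycle genes were called. With 1 pool left out, these differences lay between 1.58 and 2.70, between 1.49 and 2.85, and between 2.82 and 10.2. *Ccnb2* rested on 18 NK cell UMIs with PancVAX and 2 without, and *Ccnb2* and *Cenpf* passed the filter only with CD8+ T cells. *Col1a1*, a collagen gene (−7.35), *Sox9*, a transcription factor (2.08), and *Prelp*, an extracellular matrix protein (2.95), were called as well. *Col1a1* and *Sox9* were counted here among the fibroblast or endothelial markers. A single cell held 200 of the 204 *Col1a1* UMIs of NK cells, and the 28 large cells held 267 of 290 *Sox9* and 134 of 144 *Prelp* UMIs. None of these 3 was called under the study's limits.

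The call rule and the naming rule together named 34 genes in this comparison, 13 more positive and 21 more negative in NK cells. With the study's limits set for both cell types, 18 of the 21 and 3 of the 13 were called. DESeq2 called 8 of the 34. *Ccl5*, *Ccr2*, *Itgax*, *Itgb7*, and *Cxcl10* were called by both tools, with the study's limits for NK cells alone or for both cell types, and with each of the 8 pools left out in turn. The *Cxcl10* difference was −1.52 with the limits for NK cells alone and −3.12 with those for both cell types. Without the pool block, *Cxcl10* was not called.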

How the data were processed

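Per the submitters' processing notes, the 10x Genomics 5′ libraries were processed with Cell Ranger 4.0.0 on mm10 and analysed with Seurat. The deposited matrices hold UMI counts per gene and barcode, not normalized, and the deposited T cell receptor tables list contigs by barcode, which were used only to count cells with a contig. Groups came from the labels. The NK cell rule, the gene lists, and the comparisons were chosen with earlier results of these data known.

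NK cell counts were summed by pool (8 values) or by library (16 values), and genes were filtered with filterByExpr and tested with edgeR 4.0.16 (TMM, quasi-likelihood) in R 4.3.3, with DESeq2 1.42.0 as an alternative. The fit of NK cells against CD8+ T cells (same quality limits, a *Cd3* gene and *Cd8a* or *Cd8b1* detected, *Ncr1* and *Cd4* at 0) had the pool as a block, because both were taken from the same pool, and libraries were paired by treatment and preparation as labelled. The scripts were tested on simulated data. Shares were compared by exact permutation in Python 3.11.15 with scipy 1.17.1. For shares of cells with a UMI, each cell was thinned to 1000 UMIs. A share of 0 allows 3 counts of the total, and such limits cover counting error only. No doublet caller was run, and cells over 10000 UMIs were kept, with the study's limits as an alternative. The genes named were those called with the largest changes, called members of the fixed lists, and the markers, antibody targets, and T cell genes of the naming rule. *Ly6c1*, *Ifitm3*, *S100a8*, *S100a6*, and genes called in comparisons with 5 or fewer calls were named after their values were seen. Nothing in the sources used here says that the pools are independent of cage or day, so *P* values measure at most the spread between these pools or libraries. The alternatives were other normalizations, filters and cell limits, single preparations, and each pool left out. Some genes are not reported here.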

Additional observations from a re-analysis of the deposited data

Results flagged for a closer look

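10 values of single pools stood far from the other 3 of their group, of 96 groups of 4 pools examined, where chance alone marks about 1 in 20. A pool with any UMI beside 3 at 0 is always marked. The mark thus carries no weight in *Ccnb2* and *Col1a1* without PancVAX or in *Ly6c1* and *Rsad2* with it. In CPM of the summed NK cells, *Ccr2* was at 77.3 in the anti–CTLA-4 pool, against 193 to 200.2 in the other pools without PancVAX. *Cxcl10* was at 1008.4 and *Gbp2* at 699.2 in the same pool, which also held the highest *Cenpf* without PancVAX, 17.6. *Col1a1* was at 706.1 in the pool of both antibodies and at 0 in the other 3. *Ccnb2* was at 10.5 (2 UMIs) in the isotype control pool and at 0 in the other 3. With PancVAX, *Ly6c1* and *Rsad2* were at 4.83 (1 UMI each) in the anti–CTLA-4 pool and at 0 elsewhere, *Cenpf* was at 0 with PancVAX alone, and *Col1a1* was at 0 with anti–CTLA-4, against 3 UMIs over the other 3 pools.

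By the edgeR test with the pool block, the PancVAX effect was called different between NK cells and CD8+ T cells in 100 genes. Without the pool block 6 genes were called, and DESeq2 called 13. *Ifit3*, *Rsad2*, *Cxcr3*, *S1pr1*, *Ccnb2*, *Cenpf*, *Ccl1*, and *Col1a1* passed the filter only with CD8+ T cells, so their differences are a description. More negative in NK cells, with the log2 difference, were *Ccl5* (−2.23), *Ccr2* (−3.31), *Itgax* (−3.06), *Itgb7* (−1.95), *Itgam* (−2.68), *Cxcl10* (−2.88), *Cxcr3* (−2.43), *S1pr1* (−2.44), and *Ly6c2* (−2.28). Among interferon-stimulated genes these were *Isg15* (−1.55), *Isg20* (−1.44), *Ifit3* (−4.53), *Ly6a* (−2.46), *Ifi27l2a* (−2.49), *Rsad2* (−5.06), and *Gbp2* (−1.37). *Il18r1* (−1.40), *Rora* (−1.41), *Dusp2* (−0.87), the protease gene *Cma1* (−3.95), and *Col1a1* (−7.35) were further cases. *Cma1* is on the list for mature NK cells and had a UMI in 43 unthinned NK cells (12.0%, against 0.401% of CD8+ T cells). In CD8+ T cells with PancVAX, *Cma1* ranged from 0.0708 to 46.3 CPM between pools. Its difference lay between −5.80 and 0.29 with 1 pool left out, and DESeq2 did not call it. *Il18r1*, *Rora*, and *Dusp2* were each called with 2 of the 8 pools left out in turn and not by DESeq2. Each was called under the study's limits for both cell types. More positive in NK cells were *Irf8* (1.06), *Tox* (1.54), *Gzmc* (1.13), *Fos* (0.95), and *Ccl1* (3.39). *Fos* lay between 0.13 and 1.57 with 1 pool left out, and *Ccl1* rested on 15 NK cell UMIs with PancVAX and 5 without. The cell cycle genes *Birc5* (2.23), *Stmn1* (1.15), *Ube2c* (2.19), *Cenpf* (2.20), and *Ccnb2* (3.47), the histone gene *Hist1h2ae* (2.18), *Sox9* (2.08), and *Prelp* (2.95) were also more positive.

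Between preparations, the PancVAX effect on *Tubb5* differed by −2.16 on the log2 scale, whole tumor minus Percoll. The NK share changed from whole tumor to Percoll by 0.191 points less in pools with anti–PD-1 than in those without (−0.191). It was noticed in the data before an exact permutation test was run on it (adjusted *P* = 0.0857), so that test supports nothing here.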

How the results depend on the processing

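Of 718 values of 51 named genes and comparisons under other settings, 504 kept direction and side of the threshold, 195 kept the direction and lost the call, 2 gained one, and 17 changed sign. In counts of genes called, PancVAX gave 2 with DESeq2, 72 with no filter on low counts, and 0 under the study's limits, with *C1qb* at 0 and no receptor contig, over 16 libraries (also under the study's limits), or in either preparation alone. For anti–PD-1 these were 1, 69, and 2 (DESeq2, no filter, study's limits), and for anti–CTLA-4 they were 1, 72, and 1. No filter gave 61 for PancVAX against isotype control, 9 for both antibodies added, and 65 for Percoll, where DESeq2 gave 9 and the study's limits 50. The difference from CD8+ T cells gave 13 with DESeq2, 61 with the study's limits for NK cells, 123 for both cell types, and 41 for both with DESeq2. With 1 pool left out, counts ran from 0 to 11 for PancVAX, where 11 came without PancVAX plus anti–PD-1 and 7 without PancVAX alone. They ran from 0 to 4 for anti–PD-1 (4 without either of these pools) and from 0 to 22 for anti–CTLA-4 (22 without PancVAX alone). Without any of the anti–CTLA-4, both-antibody, PancVAX plus anti–CTLA-4, or PancVAX plus both-antibody pools, 0 were called for PancVAX. The difference from CD8+ T cells ran from 23 (without PancVAX plus both antibodies) to 171 (without PancVAX plus anti–PD-1), with 57, 60, and 57 without the anti–CTLA-4, both-antibody, and PancVAX plus anti–CTLA-4 pools. The cause was not tested.

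Without the pool block 6 genes differed between cell types, all among the 100, and 5 of the 34 named genes kept their call. Without treatment as a block Percoll gave 4, and without preparation as a block the pairs gave 0 and 0. Blocks came from labelled pools and preparations.

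The NK share difference by PancVAX was −0.0796 points from 2000 UMIs, −0.0431 after thinning, −0.0868 in whole-tumor libraries, and −0.0712 without T cells, none past 0.05, with means of 0.263% and 0.342%, 0.121% and 0.164%, 0.240% and 0.327%, and 0.333% and 0.404% with and without PancVAX. With 1 pool left out it ran from −0.108 to −0.0808, with the exact permutation *P* at 0.0571, without anti–PD-1 (−0.0808), both antibodies (−0.0913), isotype control (−0.0849), PancVAX (−0.0816), or PancVAX with anti–CTLA-4 (−0.0839), anti–PD-1 (−0.0946), or both (−0.105). For anti–PD-1 it was 0.136 in whole-tumor and −0.0549 in Percoll libraries, 0.0137 under the study's limits, 0.00561 after thinning, 0.0704 without T cells, and 0.0220 (without anti–PD-1) to 0.0690 (without isotype control) with 1 pool left out, where it was 0.0227 without PancVAX and 0.0250 without PancVAX plus anti–CTLA-4. For preparation it was 0.158 under the study's limits, 0.00551 after thinning, and 0.0216 (without isotype control) to 0.0601 (without PancVAX plus anti–PD-1) with 1 pool left out, where it was 0.0238 without anti–CTLA-4 and 0.0249 without PancVAX plus anti–CTLA-4. For anti–CTLA-4 it was 0.0465 under the study's limits, 0.00380 after thinning, 0.00428 in Percoll libraries, and −0.0430 to 0.00737 with 1 pool left out, above 0 without anti–PD-1 (0.00737), isotype control (0.00326), or PancVAX plus anti–CTLA-4 (0.00430). The cycling difference ran from −0.133 (without PancVAX plus anti–CTLA-4) to 3.57, and was −0.0524 without PancVAX plus both antibodies. Signs changed for *Birc5* (−0.30) and *Cenpf* (−1.02) under both limits with DESeq2, *Prelp* (−0.23, −1.08, and −0.29 under both limits, both with DESeq2, and NK limits), *Fos* (−0.047 under both limits with either tool), *Col1a1* (0.79 under NK limits, 9.23 without the both-antibody pool), and *Cma1* (0.29 without PancVAX plus anti–PD-1). Values not called in either setting also changed sign, all for PancVAX in NK cells, in *Klra7* (0.022 under the study's limits, 0.0062 there over 16 libraries, 0.45 in whole-tumor libraries, 0.011 without PancVAX plus anti–CTLA-4), *Txk* (0.33 in whole-tumor libraries, 0.011 without the both-antibody pool), and *Gzmb* (−0.10 in Percoll libraries). Each pool held 28 to 58 NK cells.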
